A study of Mus musculus with 49 samples.

Results

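Gdnf and 6 genes that carry, place or limit its signal were described in 49 single cells of the mouse kidney rudiment. The 7 genes were taken by symbol from 13093 rows of expression values: the ligand gene Gdnf, the co-receptor gene Gfra1, the guidance ligand and receptor genes Slit2 and Robo2, the Sprouty gene Spry1, and the integrin and integrin ligand genes Itga8 and Npnt. All 7 were found, on 1 row each. The cells came from metanephric mesenchyme of Tg(Crym-EGFP)82Gsat mouse embryos at 11.5 days post coitum (Theiler stage 19), of mixed background and both sexes, per the labels. The transgene places green fluorescent protein under Crym control and was carried by every cell, so there was no untreated or wild-type group. Per the labels the dissection followed the fluorescence and reached slightly past the Crym domain; in the values, 19 of the 49 cells had Crym below 10 RPKM. According to the labels Crym marks the same cells as Six2 at this stage. No embryo or litter is named, so the 49 cells counted as 1 sample. Each share carries its exact (Clopper-Pearson) 95% binomial interval, which covers counting error alone, and no p-value was computed.

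GDNF is secreted by the metanephric mesenchyme and binds GFRα1, and together they activate the receptor tyrosine kinase RET on the neighbouring Wolffian duct and ureteric bud, which grows out and branches in response. Several genes keep this response to 1 place: in mouse mutants of Slit2 or Robo2 the Gdnf domain extends too far forward and extra buds form, and Spry1 mutants form extra buds because RET signalling is not damped. Nephronectin, the product of Npnt, is a matrix ligand deposited by the bud, and its receptor on the mesenchyme is the integrin α8β1; mouse mutants of either gene have reduced Gdnf and often lack kidneys.

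In every cell the values are RPKM, reads scaled by gene length and by how many reads of that cell were mapped, so levels of different genes can be set side by side. A gene was called found in a cell at 1 RPKM or more. The 49 cells had a median of 5210 genes found, and their relative sequencing depth, recovered from the steps between low values, ran from 0.693 to 1.52 in 47 cells. Cells 3 and 7 were far shallower, at 0.0346 and 0.0462. Cell 25 held 13 of 14 ureteric bud markers and 12 of 17 stroma markers, and cell 27 held 8 endothelial markers, whereas no other cell held more than 3 of the ureteric bud list. Six2, the transcription factor gene of nephron progenitors, was found in 27 cells, and Foxd1, the transcription factor gene of the stroma, in 24. Of the 13 nephron progenitor markers 7 were found in 25 or more cells, with Wt1 in 47 and Sall1 in 44, beside 34.8% of all genes. The least found were Fgf20 in 2, Pax2 in 8, Tmem100 in 11 and both Cited1 and Uncx in 12.

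The 250 bases before the annotated starts of the ligand gene and of the 2 members whose shares of cells at 1 RPKM differed most between cells with and without Six2, Gfra1 and Itga8, are shown first. They come from RefSeq on build GRCm38.p6 (not the mm9 build of the expression table), 5′ to 3′ on the strand of the gene. All 7 members matched, with 11 start sites in all. Capitals mark matches, on either strand, to 4 motifs: a Six2 element (TCANGTTTC), a TATA box (TATAAA), a GC box (GGGCGG) and a CCAAT box (CCAAT, which reads ATTGG on the other strand). The windows lie at chr15:7809798-7810047 (+) and chr15:7813477-7813726 (+) for the 2 Gdnf starts, chr19:58455399-58455648 (-) for Gfra1 and chr2:12301945-12302194 (-) for Itga8.
Gdnf start 1: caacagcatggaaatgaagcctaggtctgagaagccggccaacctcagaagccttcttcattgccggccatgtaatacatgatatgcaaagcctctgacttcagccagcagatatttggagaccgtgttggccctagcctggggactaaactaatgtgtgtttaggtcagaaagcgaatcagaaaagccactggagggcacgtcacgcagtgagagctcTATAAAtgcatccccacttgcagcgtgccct
Gdnf start 2: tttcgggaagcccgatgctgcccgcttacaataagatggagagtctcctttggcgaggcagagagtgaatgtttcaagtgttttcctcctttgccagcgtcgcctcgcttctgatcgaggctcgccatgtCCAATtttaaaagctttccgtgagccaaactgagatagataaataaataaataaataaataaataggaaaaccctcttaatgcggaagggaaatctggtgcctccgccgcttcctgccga
Gfra1: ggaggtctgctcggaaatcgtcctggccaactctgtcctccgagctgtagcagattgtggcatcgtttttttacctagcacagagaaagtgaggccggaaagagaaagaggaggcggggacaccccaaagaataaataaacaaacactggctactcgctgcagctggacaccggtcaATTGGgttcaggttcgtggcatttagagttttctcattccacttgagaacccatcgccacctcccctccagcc
Itga8: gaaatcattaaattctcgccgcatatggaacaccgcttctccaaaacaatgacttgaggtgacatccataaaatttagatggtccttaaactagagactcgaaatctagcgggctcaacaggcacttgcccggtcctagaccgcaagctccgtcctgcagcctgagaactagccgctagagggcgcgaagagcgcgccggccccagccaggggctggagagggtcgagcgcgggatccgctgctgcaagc

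A TATA box stood 31 to 26 bases before the first Gdnf start, and the second Gdnf window held a CCAAT box instead. Gfra1 held a CCAAT box on the other strand, 73 to 69 bases before its start, and the Itga8 window held none of the 4 motifs. Of the members not shown, Slit2 held a TATA box and 3 GC boxes, Spry1 a GC box and a CCAAT box, and the first Npnt start 3 GC boxes, while the 3 Robo2 windows and the second Npnt window held none. Over all 32851 windows of this length, 12.4% held the TATA box, 32.7% the GC box and 33.8% the CCAAT box. The Six2 element was in 0.989% of all windows and in none of the 11 windows of the members. A match describes letters, not a bound site, and the absence of one covers only these windows.

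Found in how many cells, the 7 genes differed widely. Robo2 was found in 45 of 49 cells (91.8%, interval 80.4 to 97.7%). Gfra1 and Itga8 were each found in 24 cells (49.0%, interval 34.4 to 63.7%), and Slit2 in 21 (42.9%, interval 28.8 to 57.8%). Gdnf was found in 16 cells (32.7%, interval 19.9 to 47.5%), Spry1 in 12 (24.5%, interval 13.3 to 38.9%) and Npnt in 8 (16.3%, interval 7.32 to 29.7%). Neighbours in this order from Gfra1 to Npnt had overlapping intervals, whereas the interval of Robo2 lay above all the others. Robo2 was the only member found in 25 or more cells, beside 34.8% of all genes in the table.

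How often a gene was found and how high it stood where found were 2 different orders. Among the cells in which each was found, the median level was highest for Spry1, at 44.7 RPKM, followed by Robo2 at 28.4, Gdnf at 25.5, Npnt at 23.8, Itga8 at 15.6, Gfra1 at 14.9 and Slit2 at 4.66. At this threshold Spry1 was thus in few cells but high in most of those, and Slit2 was in more cells at a low level. In a cell of median depth 1 RPKM stood for 4.59 reads of Spry1 and 22.8 of Slit2, so the call asked for unequal numbers of reads. The ranges of all 7 genes overlapped.

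**Figure D1:**
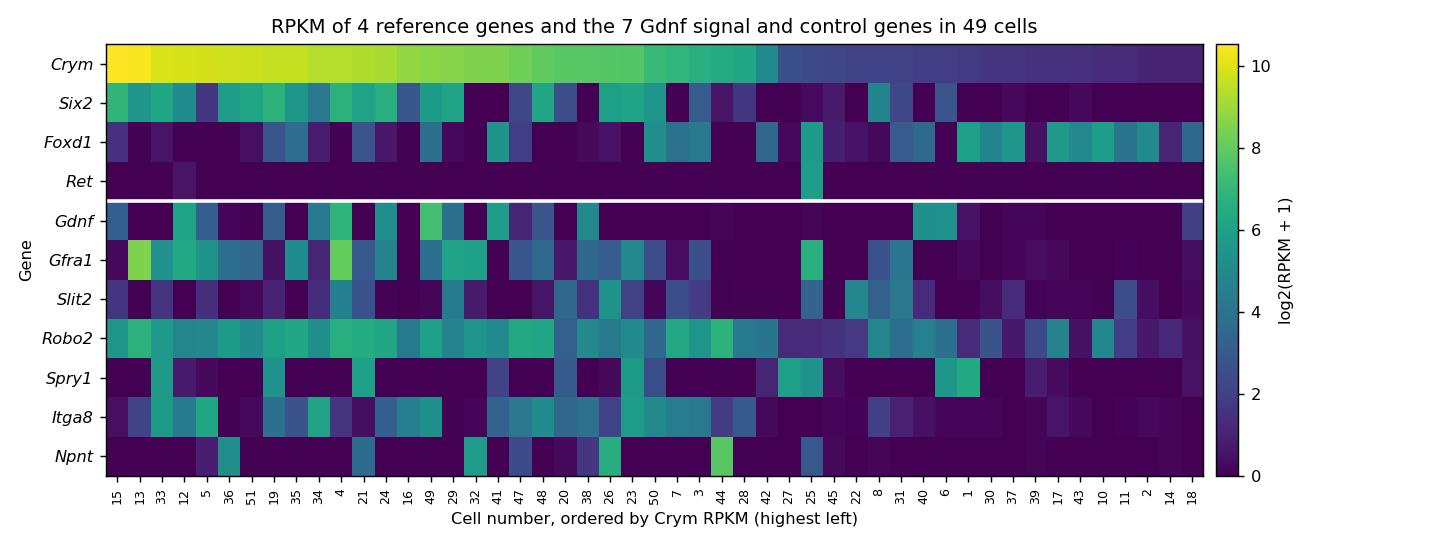
Each column is 1 of 49 cells, ordered from the highest to the lowest Crym RPKM, and each row a gene; colour gives log2(RPKM + 1), with 4 reference genes above the white line and the 7 genes below it. Robo2 and Itga8 are brighter toward the left, where Crym is high, and 13 of the 16 cells with Gdnf and 7 of the 8 with Npnt are among the 30 cells with high Crym; Ret is bright in cell 25 alone.

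Gdnf itself was listed at 0 in 27 cells, below 1 RPKM in 6 and above it in 16. The 16 cells had 162, 119, 68.8, 58.9, 39.3, 38.0, 37.2, 31.3, 19.7, 14.0, 7.92, 7.78, 7.38, 5.78, 2.94 and 1.16 RPKM, in cells 49, 4, 12, 41, 6, 40, 24, 38, 34, 29, 15, 5, 19, 48, 18 and 47. The ligand therefore varied over more than 100-fold among the cells that held it, with 10 of them above 10 RPKM. Reads behind the values could be recovered: the 6 low cells rested on 1 or 2 reads each, and the 16 on 7 to 1020 reads with a median of 148. No cell lay between 2 and 7 reads. In a cell of median depth 3 reads of Gdnf came to 0.464 RPKM, so a Gdnf level of 1 RPKM was within reach there. In the shallow cells 3 and 7 the same 3 reads would be 13.4 and 10.0 RPKM. Lower levels in these 2 cells could be missed or rest on fewer than 3 reads, and the call at 1 RPKM did not ask for 3.

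Of the genes known to act on the Gdnf locus from the mouse literature, the list of 12 upstream regulators was in the table in full. Of the 12, 5 were found in 25 or more cells, beside 34.8% of all genes. Hoxa11, a posterior Hox gene needed for Gdnf expression together with its paralogs, was found in 11 of the 16 cells with Gdnf (68.8%) and in 9 of the 33 without (27.3%). Osr1, an early marker of the intermediate mesoderm, was found in 13 of 16 (81.2%) and in 11 of 33 (33.3%). Eya1, a transcriptional partner of Six2 and its relatives, was found in 13 of 16 (81.2%) and in 19 of 33 (57.6%), and Sall1 in all 16 and in 28 of 33. Of the 9 list genes found in 5 to 44 cells, 7 had a share at least 20 points higher in cells with Gdnf, and none was lower by as much; among all 8949 genes found in 5 to 44 cells, 16.3% were higher by 20 points. Gdnf was one of the 4 ligand genes of its family listed, of which only Nrtn was also in the table, at 5.37 RPKM in cell 32 and at 0 in 48 cells.

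Gfra1, the co-receptor, was not confined to the cells with the ligand. It was listed at 0 in 15 cells, its median over all 49 cells was 0.648 RPKM, and its highest values were 358 RPKM in cell 13, 261 in cell 4, 101 in cell 25 and 81.3 in cell 12. The 358 RPKM of cell 13 rested on 3605 reads, and that cell was listed at 0 for Gdnf. Gfra1 was found in 10 of the 16 cells with Gdnf (62.5%, interval 35.4 to 84.8%) and in 14 of the 33 without (42.4%, interval 25.5 to 60.8%), a difference of 20.1 points with overlapping intervals. Cells 41, 6 and 40 held Gdnf at 58.9, 39.3 and 38.0 RPKM and Gfra1 at 0. The Gfra1 value of shallow cell 3, 4.97 RPKM, rested on 1.14 reads.

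RET, the signalling partner of GFRα1, is made by the bud and not by the mesenchyme. Ret was listed at 0 in 47 cells and reached 59.6 RPKM in cell 25, with 0.474 RPKM in cell 12. Cell 25, the one with 13 ureteric bud markers, held Gfra1 at 101 RPKM, Spry1 at 42.0, Slit2 at 8.87, Npnt at 6.18 and Robo2 at 1.44, with Gdnf at 0.143 RPKM (1 read) and Itga8 at 0. It was the 1 cell in which the receptor, the co-receptor and the inhibitor gene were found together. Without cells 25 and 27, Gfra1 was found in 48.9% of cells and Spry1 in 21.3%. Gfra3, the co-receptor gene for the related ligand artemin, was found in 15 cells, and its share in cells with Foxd1 minus that in cells without was 29.8 points, against -30.7 points for Gfra1; both were found in 6 cells. Ncam1, which encodes an alternative partner of the GDNF co-receptor, was found in 46 cells.

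Slit2, the secreted guidance cue, was low in most of the cells that held it. It was listed at 0 in 11 cells, its median over all cells was 0.294 RPKM, and the highest values were 40.2 RPKM in cell 26, 28.7 in cell 22, 22.6 in cell 4, 18.4 in cell 29, 17.1 in cell 31 and 10.8 in cell 20. These 6 were the cells above 10 RPKM. Slit2 is a long transcript, so that 1 RPKM stood for 22.8 reads in a cell of median depth, and 17 further cells had a trace below 1 RPKM that rested on at most 11 reads. In shallow cells 3 and 7 the Slit2 values of 2.53 and 4.81 RPKM rested on 2 and 5.07 reads.

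Robo2, the Slit receptor, was above 0 in every cell, from 0.381 RPKM in cell 43 to 110 RPKM in cell 44, with a median of 26.5 RPKM. The lowest 4 cells were 43, 18, 2 and 37, at 0.381, 0.408, 0.625 and 0.629 RPKM, and all 4 held Foxd1 at 10 RPKM or more. The Robo2 row spans the row of the microRNA gene Mir691, and how reads in both rows were counted is not stated. Slit2 and Robo2 were found together in 20 cells, which is 95.2% of the cells with Slit2 and 44.4% of those with Robo2. If the 2 genes were independent, 19.3 cells would hold both. The Spearman rho of their levels over the 49 cells was 0.01. Robo1, another Slit receptor, was found in 41 cells at a median of 4.84 RPKM, below the 26.5 RPKM of Robo2. Of the 14 genes listed as limits on the Gdnf domain, 12 were in the table and 5 were found in 25 or more cells, beside 34.8% of all genes. Among the 5 were Foxc1 in 35 and Foxc2 in 36 cells. Foxc1 had a share 47.8 points higher in cells with Foxd1, while Foxc2 differed by 3.00 points. Of the 9 list genes found in 5 to 44 cells, 3 were higher by 20 points with Foxd1 and 0 lower. Among all genes 11.8% were higher by as much.

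Spry1, the intracellular inhibitor of receptor tyrosine kinase signalling, was found in 2 separate ranges. In 8 cells it stood at 85.2, 64.2, 59.9, 53.0, 51.1, 47.3, 42.0 and 41.4 RPKM (cells 1, 21, 27, 23, 33, 6, 25 and 19), and in 4 cells at 6.86, 4.79, 3.47 and 1.12 RPKM (cells 20, 50, 41 and 42). No cell lay between 6.86 and 41.4 RPKM, and 30 cells were listed at 0. The 8 high cells included cell 25 with the bud markers, cell 27 with the endothelial markers, 5 cells with Six2 (21, 23, 33, 6 and 19) and cell 1 with the highest Foxd1, at 60.1 RPKM. Spry1 was found in 3 of 16 cells with Gdnf (18.8%, interval 4.05 to 45.6%) and in 9 of 33 without (27.3%, interval 13.3 to 45.5%), and the intervals overlapped almost wholly. Its relative Spry2 was found in 46 cells, the 12 cells with Spry1 included, at a median of 17.0 RPKM, and Spry4 in 18. Of the 10 genes listed for this feedback, 9 were in the table and 3 were found in 25 or more cells, beside 34.8% of all genes. The 3 were Spry2, the phosphatase gene Dusp6 in 40 cells and the sulfatase gene Sulf2 in 42. Dusp6 had a share 27.3 points higher in cells with Gdnf. It was 1 of 3 genes higher by 20 points among the 8 of this list found in 5 to 44 cells, with 0 lower, beside 16.3% of all genes. Etv4 and Etv5, transcription factor genes that respond to RET and to fibroblast growth factors, were found in 6 of 12 and 9 of 12 cells with Spry1 and in 9 of 37 and 22 of 37 without. The list of 13 targets of RET or fibroblast growth factors, Spry1 among them, had 12 genes in the table. Of these, 4 were found in 25 or more cells, beside the same 34.8% of all genes.

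Itga8, the α8 subunit, was above 0 in 42 cells and at 1 RPKM or more in 24. Its highest values were 74.3 RPKM in cell 5, 65.5 in cell 34, 55.9 in cell 23, 51.8 in cell 33 and 38.4 in cell 49, and its median over all cells was 0.982 RPKM. In the 18 cells with a trace the values rested on 0.73 to 9.87 reads. Overlap with the row of E030013I19Rik leaves the share of reads between the 2 rows uncertain. Its partner subunit Itgb1 was found in 48 cells and in 23 of the 24 with Itga8, at a median of 40.1 RPKM, so the α8 subunit was the less often found of the pair; the Spearman rho of the 2 levels was -0.36. Kif26b, a kinesin gene needed for mesenchymal adhesion around the bud in mouse, was found in 19 of the 24 cells with Itga8 (79.2%) and in 5 of the 25 without (20.0%), and the 2 levels had a Spearman rho of 0.52. Of 8420 genes ranked against Itga8, 25 had a rho of 0.5 or more, and no share of all genes by Itga8 is given. The share of Kif26b also differed by 47.6 points between cells with and without Six2, and by -30.7 points for Foxd1.

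Npnt, whose product the bud deposits, was found in 8 cells and listed at 0 in 35. The 8 values were 223, 92.3, 53.6, 35.4, 12.1, 6.18, 4.36 and 2.15 RPKM, in cells 44, 26, 32, 36, 21, 25, 47 and 38. The highest rested on 1717 reads and the lowest on 15.9, and 7 of the 8 cells held fewer than 3 ureteric bud markers. Npnt and Itga8 were found together in 4 cells, 50.0% of the cells with Npnt and 16.7% of those with Itga8, and in none at 10 RPKM. At 1 RPKM, 3.92 cells would hold both if the 2 genes were independent. At 10 RPKM Npnt was found in only 5 cells and Itga8 in 15, and no count under independence is given there. Of the 11 genes listed around nephronectin and its integrin, 9 were in the table and 4 were found in 25 or more cells, beside 34.8% of all genes. Fras1 and Frem1, matrix genes of the basement membrane, were each found in 27 cells, and Fn1, fibronectin, in 36 with a share 35.7 points higher in cells with Foxd1. Of the 8 list genes found in 5 to 44 cells, 3 were higher by 20 points with Foxd1 and 2 lower. Among all genes 11.8% were higher and 4.05% lower by as much.

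At 1 RPKM the shares of Gfra1 and Itga8 differed most between cells with Six2 and the others, while Robo2, found in nearly every cell, differed in level. Gfra1 was found in 21 of 27 cells with Six2 (77.8%, interval 57.7 to 91.4%) and in 3 of 22 without (13.6%, interval 2.91 to 34.9%), with medians of 10.2 and 0 RPKM. Itga8 was found in 20 of 27 (74.1%, interval 53.7 to 88.9%) and in 4 of 22 (18.2%, interval 5.19 to 40.3%), with medians of 7.78 and 0.118 RPKM. In both genes the 2 intervals did not overlap, although single cells did: cell 25 had 101 RPKM of Gfra1 and cell 32 had 61.5 RPKM, both without Six2. Without the 2 shallow cells the difference was 62.6 points for Gfra1 and 58.8 for Itga8, and without cells 25 and 27 it was 67.8 and 54.1 points.

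Gdnf was found in 12 of 27 cells with Six2 (44.4%, interval 25.5 to 64.7%) and in 4 of 22 without (18.2%, interval 5.19 to 40.3%). The 4 cells with Gdnf and without Six2 were cells 41, 40, 38 and 18, at 58.9, 38.0, 31.3 and 2.94 RPKM, and 3 of them held Foxd1 at 42.9, 11.6 and 10.8 RPKM. Slit2 was found in 14 of 27 and 7 of 22, Spry1 in 7 and 5, and Npnt in 4 and 4, each with overlapping intervals. Robo2 was found in all 27 cells with Six2, from 8.44 to 108 RPKM with a median of 37.3, and in 18 of 22 without, from 0.381 to 110 RPKM with a median of 3.39. The Spearman rho with Six2 was 0.58 for Robo2 and for Gfra1 and 0.43 for Itga8.

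**Figure D2:**
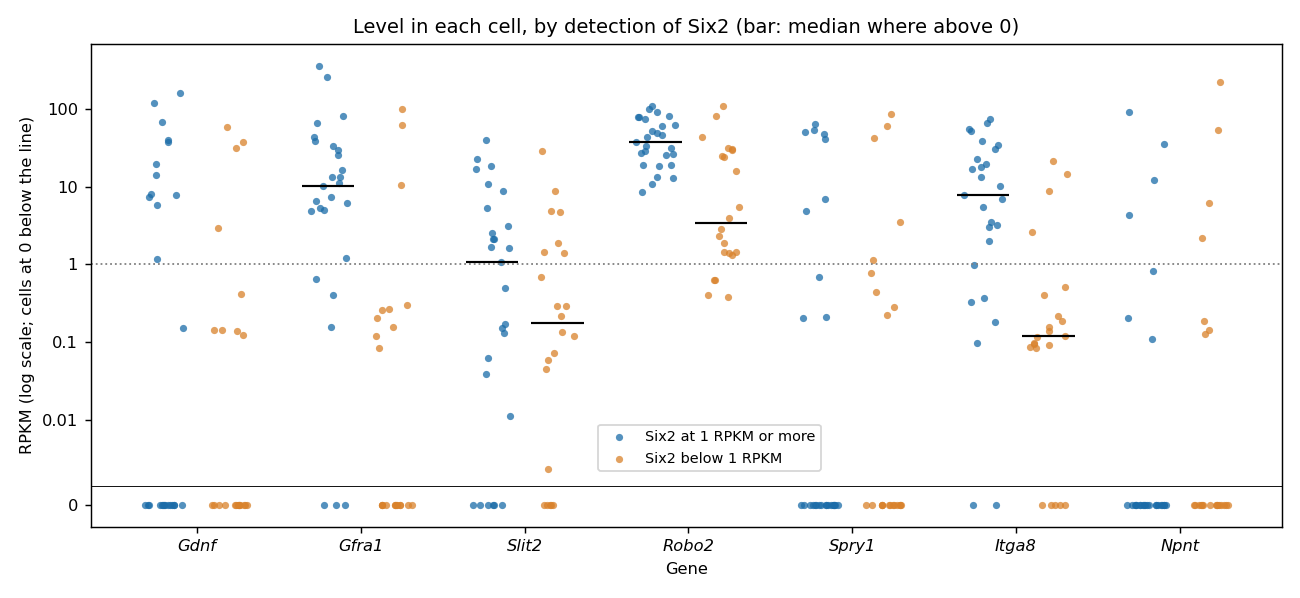
Each point is 1 cell; the vertical axis is RPKM on a log scale with cells at 0 placed below the line, blue points are the 27 cells with Six2 at 1 RPKM or more and orange points the 22 others, and bars are medians where above 0. The medians of Gfra1, 10.2 against 0 RPKM, and Itga8, 7.78 against 0.118 RPKM, stand far apart, and the ranges of every gene overlap.

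Read against all genes, 4 of the 6 members found in 5 to 44 cells (Robo2, in 45, fell outside) had a share at least 20 points higher in cells with Six2, and none was lower by as much. Of 8949 genes, 12.6% were higher by 20 points and 6.1% lower. The differences were 64.1 points for Gfra1, 55.9 for Itga8, 26.3 for Gdnf, 20.0 for Slit2, 3.20 for Spry1 and -3.37 for Npnt; their median was 23.1 points, and that of all genes 3.20. Among the 8949 genes 6 had a larger difference than Gfra1 and 10 a larger one than Itga8, against 543 for Gdnf and 1095 for Slit2. Gfra1 and Itga8 thus stood at the edge of the distribution, and Slit2 just inside the 20 points. With detection of Six2 and of the members set at 0.1 RPKM, where 32 cells had Six2, the count was 2 members, Gfra1 and Itga8. At 10 RPKM, 19 cells had Six2, and Robo2 was counted too. The count there was also 2, Gfra1 by 46.5 points and Robo2 by 46.7, with Itga8 at 18.8. The shares of all genes given here hold for 1 RPKM only, so the counts at 0.1 and 10 RPKM have none beside them. Of the upstream regulators, 7 of 8 found in 5 to 44 cells were higher by 20 points in cells with Six2, with Eya1 at 69.0 points and Osr1 at 64.1.

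At 1 RPKM, Gfra1 and Itga8 were found less often in the cells with Foxd1 than in the others. Each was found in 8 of 24 cells with Foxd1 (33.3%, interval 15.6 to 55.3%) and in 16 of 25 without (64.0%, interval 42.5 to 82.0%), a difference of -30.7 points with overlapping intervals. Robo2 was found in 20 of 24 and in all 25. The other members differed by less than 20 points: Gdnf was found in 7 of 24 and 9 of 25, Slit2 in 10 and 11, Spry1 in 7 and 5, and Npnt in 3 and 5. None of the 6 members was higher by 20 points and 2 were lower, where among all genes 11.8% were higher and 4.05% lower; the median difference of the members was -7.17 points and that of all genes 4.50. For Six2 itself the share in cells with Foxd1 minus that in cells without was -34.5 points, so these 2 comparisons are not separate. At other thresholds Foxd1 was cut at the same value, which gave 36 cells with Foxd1 at 0.1 RPKM and 18 at 10 RPKM. At 0.1 RPKM the differences were -2.56 points for Gfra1 and -4.70 for Itga8, and neither passed 20 points. At 10 RPKM they were -28.5 and -13.3 points, with Robo2 at -25.1. For these 2 thresholds no share of all genes is given.

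**Figure D3:**
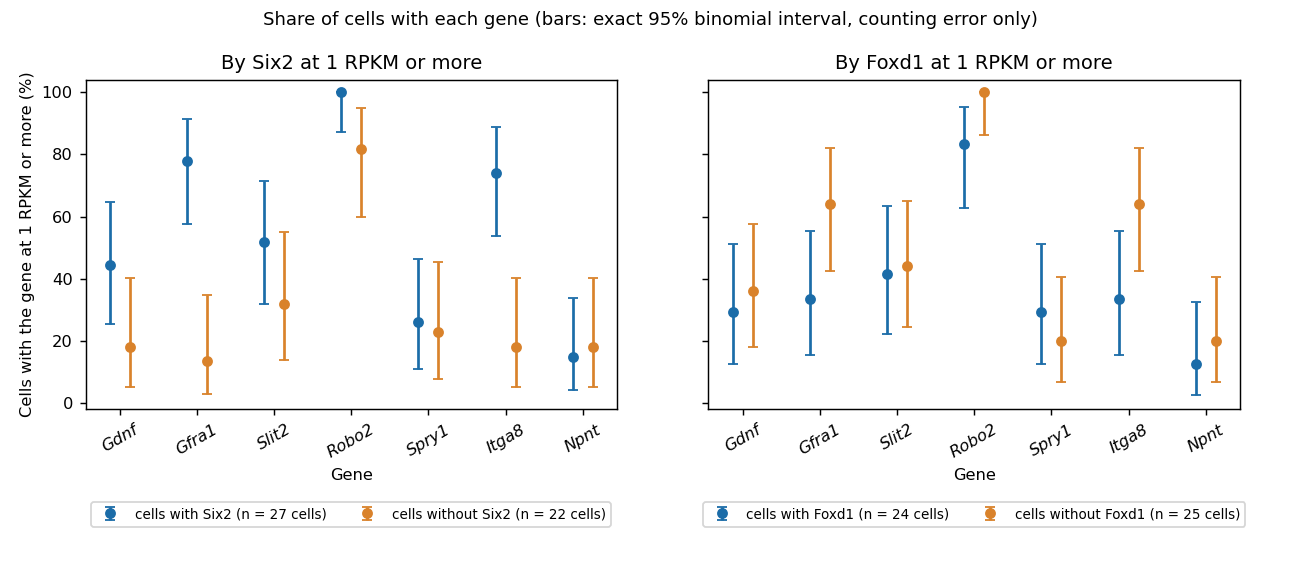
Points give the percent of cells with each gene at 1 RPKM or more and bars the exact 95% binomial interval, for cells with (blue) and without (orange) Six2 on the left and Foxd1 on the right. The bars of Gfra1 and Itga8 do not overlap for Six2, and those of every gene overlap for Foxd1.

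**Figure D4:**
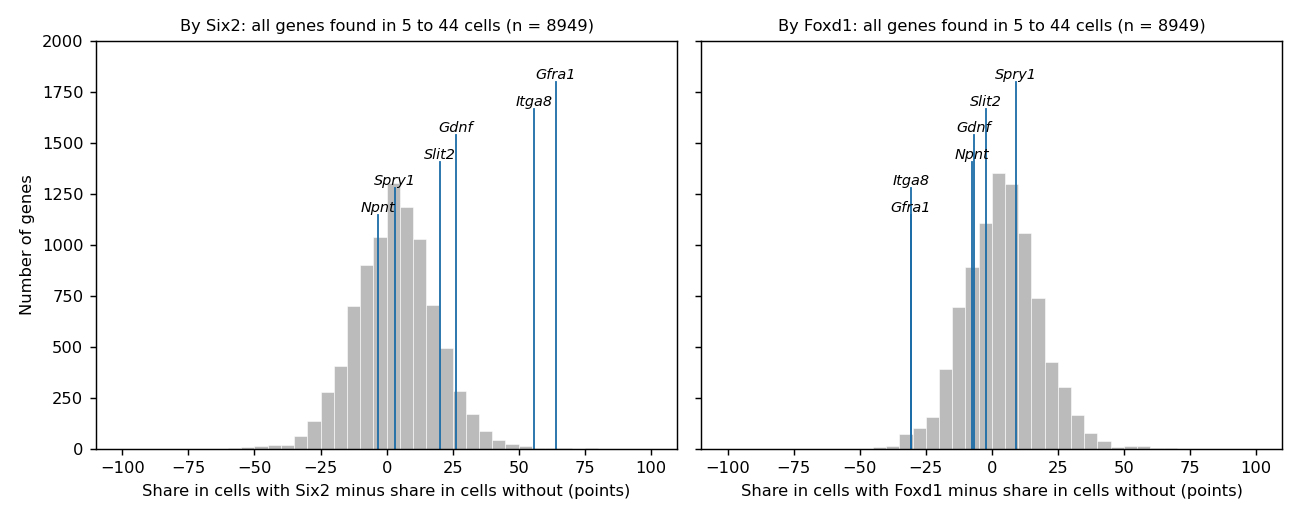
Grey bars count genes by the difference in share between cells with and without Six2 (left) or Foxd1 (right), in bins of 5 points over 8949 genes, and blue lines mark the 6 members found in 5 to 44 cells. Gfra1 at 64.1 and Itga8 at 55.9 points lie in the right tail for Six2, and both lie at -30.7 points for Foxd1.

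Crym, the gene whose reporter guided the dissection, split the cells into 30 at 31.4 RPKM or more and 19 at 4.92 RPKM or less. In the values this split was close to that of Six2 but not the same. Cells 7, 32, 38, 41, 42 and 44 of the 30 had Six2 below 1 RPKM, and cells 6, 8 and 31 of the 19 held Six2. The other cells fell alike in both splits, so the Crym and Six2 comparisons are not separate. Itga8 was found in 23 of 30 cells with Crym at 10 RPKM or more (76.7%, interval 57.7 to 90.1%) and in 1 of 19 below it (5.26%, interval 0.133 to 26.0%), cell 8 at 3.04 RPKM. This difference of 71.4 points was exceeded by 2 of 8950 genes. Robo2 ran from 8.44 to 110 RPKM with a median of 44.0 in the 30 cells, and from 0.381 to 29.5 RPKM with a median of 2.34 in the 19. Gfra1 was found in 21 of 30 and 3 of 19, Gdnf in 13 and 3, and Npnt in 7 and 1. Of the 6 members in range, 3 were higher by 20 points with Crym, beside 10.1% of all genes.

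Seen from the ligand, 2 of 5 members in range were higher by 20 points in cells with Gdnf, Gfra1 by 20.1 and Itga8 by 29.4 points, beside the 16.3% of all genes given above. Robo2, found in nearly every cell at 1 RPKM, differed by 2.84 points at that threshold but by 31.4 points at 3 RPKM and 35.9 at 10 RPKM. Gdnf was cut at the same threshold each time, so the groups of cells changed too. It was found in 44.9% of cells at 0.1 RPKM, 28.6% at 3 RPKM and 20.4% at 10 RPKM. Gfra1 differed by 26.3 points at 0.1 RPKM, 14.3 at 3 RPKM and 31.8 at 10 RPKM. Itga8 differed by -1.35 points at 0.1 RPKM, 27.1 at 3 RPKM and 11.8 at 10 RPKM. Which members passed 20 points thus depended on the threshold, and the 16.3% of all genes holds for 1 RPKM alone. Itga8 was found in 11 of 16 cells with Gdnf (68.8%, interval 41.3 to 89.0%) and in 13 of 33 without (39.4%, interval 22.9 to 57.9%), with medians of 11.1 and 0.215 RPKM and overlapping intervals. Slit2 was found in 8 of 16 and 13 of 33, and Npnt in 2 of 16 and 6 of 33. Among the 27 cells with Six2 the shares lay close together: Gfra1 was found in 9 of 12 with Gdnf and 12 of 15 without, and Itga8 in 9 of 12 and 11 of 15.

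Of the 21 pairs of members, 4 had a Spearman rho of 0.3 or more across the 49 cells and none had -0.3 or less; among all pairs of genes found in 5 or more cells 3.27% reached 0.3. The 4 were Robo2 with Itga8 at 0.52, Robo2 with Gfra1 at 0.49, Gfra1 with Slit2 at 0.33 and Gfra1 with Itga8 at 0.32. Gfra1 and Itga8 were found together in 17 cells, 70.8% of the cells of each. Gdnf had a rho of 0.24 with Gfra1, 0.26 with Robo2, 0.16 with Itga8, 0.00 with Spry1 and -0.06 with Slit2. The lowest rho was -0.23, between Robo2 and Spry1, and the median of the 21 was 0.07. All cells share 1 sequencing lane and many values are tied at 0, so these are descriptions of this sample.

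**Figure D5:**
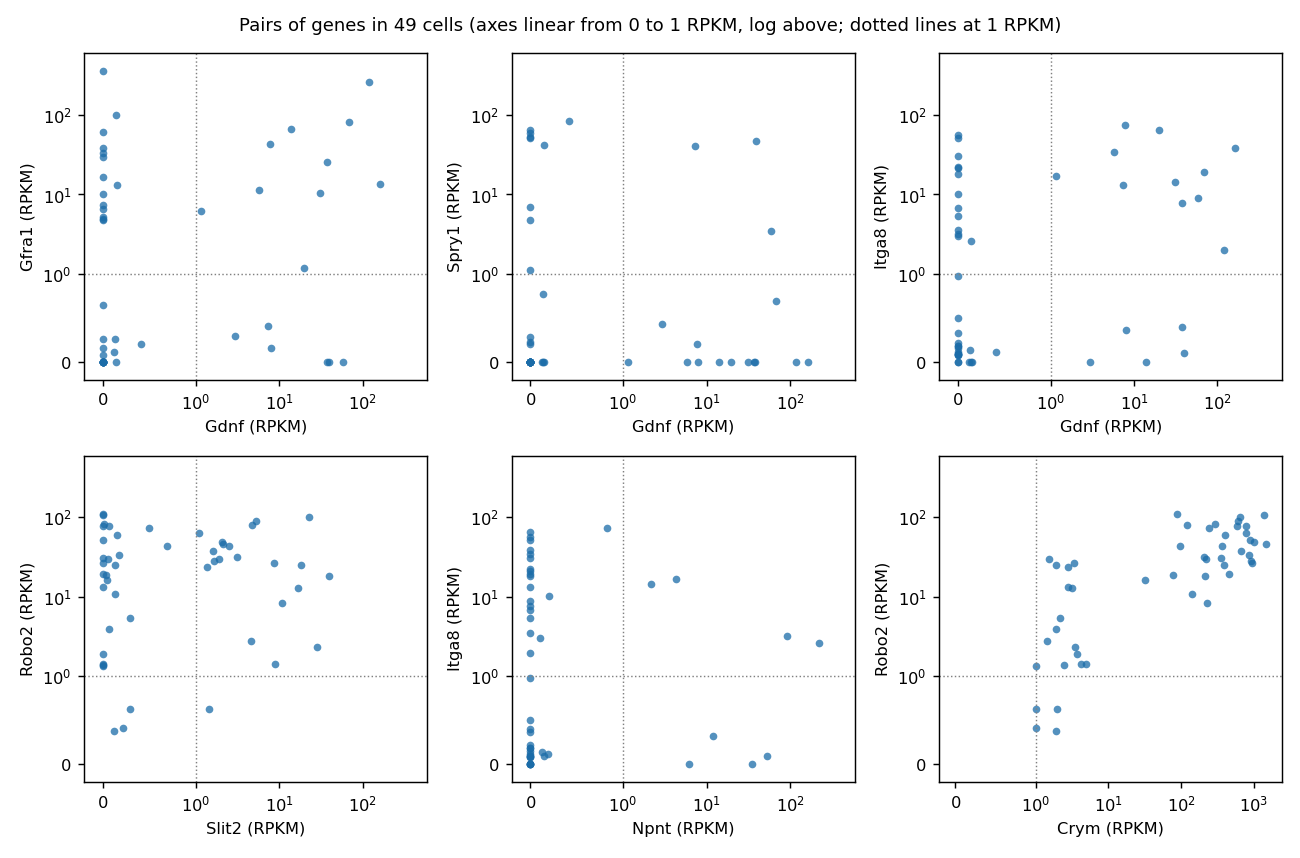
Each point is 1 of 49 cells, with RPKM of 2 genes on axes that are linear from 0 to 1 RPKM and logarithmic above, and dotted lines at 1 RPKM. Gdnf and Gfra1 are both above 1 RPKM in 10 cells and Npnt and Itga8 in 4, while in the panel of Crym and Robo2 all 30 cells with high Crym lie at 8.44 RPKM of Robo2 or more.

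The number of members found in a cell ran from 0 to 6, with a median of 3. Cells 2 and 43 held none, and cell 38 held 6, lacking Spry1: Gdnf at 31.3 RPKM, Gfra1 at 10.4, Slit2 at 1.88, Robo2 at 30.2, Itga8 at 14.3 and Npnt at 2.15. No cell held all 7. In 21 cells 4 or more were found and in 10 cells 0 or 1. Cell 38 was without Six2 and had Crym at 222 RPKM.

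The genes whose levels were most like those of each member over the 49 cells were ranked by Spearman rho among 8420 genes found in 10 or more cells. For Robo2 they were Crym at 0.73, Abca14 at 0.69, Thbs1 at 0.64, Eya1 at 0.61 and Enc1 at 0.58. For Gfra1 they were Fxyd6 at 0.68, Dhx40 at 0.63, Crym at 0.62, Sort1 at 0.60 and Six2 at 0.58. For Itga8 they were Ankrd32 at 0.66, Tpbg at 0.64, Pdgfc at 0.59, Wdr76 at 0.56 and Eya1 at 0.54. Crym stood at place 7 for Itga8, so the 3 members shared it near the top of their rankings.

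The rankings of the remaining members held no reference gene among their top 5. For Gdnf they began with Rpp14 at 0.58, Enc1 at 0.54, Zfp423 at 0.53, Homer3 at 0.52 and Zcchc2 at 0.52; Crym stood at place 414, Six2 at 1175 and Gfra1 at 956. Zfp423 and Enc1 were found in all 16 cells with Gdnf, and in 30 and 41 cells overall. For Slit2 they began with Slc35c2 at 0.51, Psme4 at 0.51, Thap11 at 0.50, Antxr1 at 0.49 and Rspry1 at 0.48. For Spry1 they began with B230118H07Rik at 0.59, Kctd17 at 0.54, Fam125a at 0.52, Ddx39 at 0.51 and Ssr4 at 0.49. For Npnt, ranked among 8421 genes, they began with Atp5b at 0.51, Zfp212 at 0.51, Grtp1 and Dcps at 0.50 and Notch2 at 0.48. The median rho over all ranked genes lay between -0.03 and 0.05 for the 7 members.

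In the coordinates of the table (build mm9), Gdnf lies on chromosome 15 at 7761011-7787575, Gfra1 on chromosome 19 at 58311182-58529849, Slit2 on chromosome 5 at 48374394-48697017, Robo2 on chromosome 16 at 73892551-74411157, Spry1 on chromosome 3 at 37538869-37543521, Itga8 on chromosome 2 at 12028287-12223547 and Npnt on chromosome 3 at 132545659-132613255.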

How the data were processed

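RNA of 49 single cells was captured on a microfluidic chip, amplified with SMARTer chemistry and sequenced from Nextera XT libraries, per the labels' protocols; strand and molecular identifiers are not kept. The deposited values are RPKM made by the authors. The other deposited column, the authors' number of cells above 3 RPKM, matched the values in all 13093 genes, so a gene never above 3 RPKM is not analysed here. The submitters' processing notes name TopHat 1.4.1, DESeq and mm9 without roles; the sources used here name no read counter. Unused columns of values numbered 0.

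No cell was filtered, no doublet caller was run, and total depth is unknown. Relative depth came from the densest ratio of values below 8 RPKM between each cell and 10 reference cells. Reads were recovered from the step that 1 read makes, whole within 0.004 reads for at least 7 values under 60 reads; Robo2 had 5 and was left out. Of the values looked at, 83.3% were whole for Gdnf and 37.0% for Slit2, the rest in steps of 0.01 read.

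Shares were compared in points beside all genes found in 5 to 44 cells. The methods were first tested on simulated data. There a read step was accepted for 149 of 200 genes and was right for 142 of these, so recovered reads can be wrong. Of 200 genes planted as like a target, 199 were among the top 200. The 7 genes, lists and thresholds were chosen with earlier results of these data known. Named genes were the members, known partners, 2 to 4 genes per list found in most cells and the 5 genes most like each member; Hoxa11, Osr1, Nrtn, Gfra3, Spry4, Etv4, Etv5 and Kif26b were named after their values were seen. Python 3.11.15, pandas 2.3.3, numpy 2.4.6 and scipy 1.17.1 were used. Alternatives were other thresholds, leaving out the 2 shallow cells or the 2 cells with markers of other tissues, Pearson correlation, and Crym in place of Six2, added after the data were seen.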

Additional observations from a re-analysis of the deposited data

How the results depend on the processing

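The detection threshold moved the most values. At 0.1 RPKM the share of cells was 67.3% for Gfra1, 63.3% for Slit2, 100% for Robo2 and 73.5% for Itga8. At 3 RPKM it was 24.5% for Slit2 and 77.6% for Robo2, and at 10 RPKM it was 12.2% for Slit2, 71.4% for Robo2 and 30.6% for Itga8. The number of members higher by 20 points or more in cells with Six2 went from 4 to 2 at 0.1 RPKM. At 10 RPKM it was also 2, with Robo2 counted as well. That with Foxd1 went from 0 to 1 at 0.1 RPKM, and that with Gdnf from 2 to 1 at 0.1 RPKM. The difference of Itga8 between cells with and without Gdnf was -1.35 points at 0.1 RPKM, of the opposite sign. In these comparisons the reference gene was cut at the same threshold as the members, so the groups of cells changed too. Shares of all genes are given beside these counts at 1 RPKM only. At 0.1 RPKM the 6 cells with 1 or 2 reads of Gdnf counted as cells with Gdnf. The lower shares of Gfra1 and Itga8 in cells with Foxd1 shrank to -2.56 and -4.70 points at 0.1 RPKM, where 36 cells counted as cells with Foxd1. Values of 0.1 RPKM are under 1 read of Gdnf, Gfra1, Spry1 or Npnt in a cell of median depth. Of the shares and counts, 47 recomputed values stayed within their counting interval or within 1.5 times and 13, those given here, did not; of the differences in share 79 stayed, 27 moved and 1 changed sign. Of the counts of cells with both genes of a pair 62 stayed and 43 moved: at 3 and 10 RPKM, Slit2 with Robo2 had 9 and 4 cells and Npnt with Itga8 2 and 0, and Gfra1 with Itga8 had 7 at 10 RPKM. Fewer cells held each gene at the higher thresholds, and counts under independence are given for 1 RPKM only. Of the list medians per cell 3 stayed and 4 moved, to lower values, at 10 RPKM. Leaving out the 2 shallow cells or the 2 cells with markers of other tissues moved none of the 7 shares beyond their intervals. Of the 35 genes named as most like a member, 28 were named again without the shallow cells, 31 with genes found in 5 or more cells and 14 with Pearson correlation of log2(RPKM + 1). No paired analysis was possible because all cells form 1 group. Low levels in cells 3 and 7 could be missed or rest on fewer than 3 reads, and changes below a few reads in any cell were not detectable at this depth.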
